A study of Mus musculus with 6 samples.

Results

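The liver secretes most of the complement and clotting proteins of blood plasma. The expression of 47 genes for such proteins was examined, 26 of complement and 21 of coagulation, out of 34745 genes measured. They were found by their exact gene symbol, which each of the 47 matched once, and all 47 passed the filter on low counts that left 13734 genes for testing. Bulk RNA-Seq had been performed on livers of WT C57BL/6J mice in 2 groups of 3, all fasted for 12 hours. The APAP group was overdosed with acetaminophen (APAP, 300 mg/kg, i.p.), a drug that injures hepatocytes around the central veins, and was sampled 12 hours later. The control group was given saline, and the Methods name male mice of 8 to 10 weeks for the study. The question was which liver transcripts differ 12 hours after the overdose. APAP replicates 1 and 3 were compared with the saline libraries WT1, WT2 and WT3. APAP replicate 2 was not analysed here, and the WT libraries were taken for the saline group, the remaining names being those of APAP mice, with no way to tell which numbered saline mouse each came from.

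Complement is a chain of plasma proteases and binding proteins that marks microbes and dying cells. It starts by antibody (classical pathway), by surface sugars (lectin pathway) or by spontaneous turnover of C3 (alternative pathway), and ends in a membrane attack complex. Coagulation is a second chain of proteases, many of them modified with the help of vitamin K, in which thrombin turns fibrinogen into fibrin, while antithrombin and protein C restrain it and plasmin dissolves the clot. Fibrinogen, C3 and some other members are acute phase proteins, whose synthesis in hepatocytes is known to respond to interleukin 6.

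Raw read counts were scaled with edgeR's TMM factors to CPM, the count of a gene relative to the scaled total of its library. Total counts per library were between 13378445 and 15976339, and the floor of detection, taken as 3 counts, was 0.176 to 0.269 CPM. Both APAP libraries held Y-linked transcripts (Ddx3y at 78.9 and 61.6 CPM) and almost no Xist (0.763 and 1.73 CPM), whereas the saline libraries held Xist at 289.3, 913 and 881 CPM with at most 1 count of Ddx3y. The saline libraries therefore did not match the male mice of the Methods, and sex-linked expression and treatment cannot be told apart in any value below. WT1 was the highest of the saline libraries in 38 of the 47 members, and APAP replicate 1 was the lower of the APAP libraries in 36. Hepatocyte markers were present in all libraries, with 7 of 8 found in the table and their summed level at 69590 and 116000 CPM with APAP and between 118800 and 162400 CPM with saline. In bulk tissue, fewer cells of a type and less RNA per cell cannot be told apart.

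Most of the 47 genes were lower in APAP livers, and the fibrinogen chains and F11 were among those on the other side. The fitted log2 fold change (APAP against saline) was negative in 36 members and positive in 11, with a median of -0.64, against 0.03 over all genes tested and -0.05 over the 7892 genes whose mean reached 10 CPM. At a Benjamini-Hochberg adjusted p under 0.05 in edgeR's quasi-likelihood test, 3 members fell (Mbl2, F13b and F7), which is 6.38% of the members where 3.53% of all genes tested and 5.21% of those whose mean reached 10 CPM were called lower. No member was called higher, where the background was 3.7% of all genes and 3.62% of those whose mean reached 10 CPM, while 1 member (F11) was higher at an unadjusted p under 0.05 and was also called higher by edgeR's likelihood ratio test, edgeR's exact test and DESeq2. At the study's thresholds, here taken as a 1.5-fold change or more with an unadjusted P under 0.05, 19 members (40.4%) were lower and 1 (2.13%) was higher, where the background was 11.2% and 12.4%. The APAP libraries lay below every saline library in 26 members (55.3%) and above in 4 (8.51%), with a background of 20.1% and 24%, and the groups overlapped in the other 17.

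These counts depended on the libraries and on the scaling. Without APAP replicate 1, the 19 lower members at the study's thresholds became 8 (17%, with a background of 7.35%), and without WT1 they became 12 (25.5%, with a background of 10.8%). The number called at the adjusted p became 0 without APAP replicate 1 or without WT2 and 1 without APAP replicate 3. With library size in place of TMM, the median of all genes moved up by 0.39 on the log2 scale, the signs became 20 positive and 27 negative, and the calls became 2 higher and 3 lower. The 9 members whose sign turned positive were C1qa, C1qc, Masp2, Hc, C8b, C4bp, Kng1, Serpinf2 and Cpb2, at values between 0.02 and 0.30. Most hepatocyte markers were lower, as most members were, with a median log2 fold change of -0.50 and a range from -1.64 to 0.57. A lower level without overlap was found in 5 of 7, where 20.1% of all genes tested were lower in this way, and none was called. Apoa1 went the other way, at 0.57 (SE 0.404). The part of hepatocytes in the members' values was not tested.

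**Figure D1:**
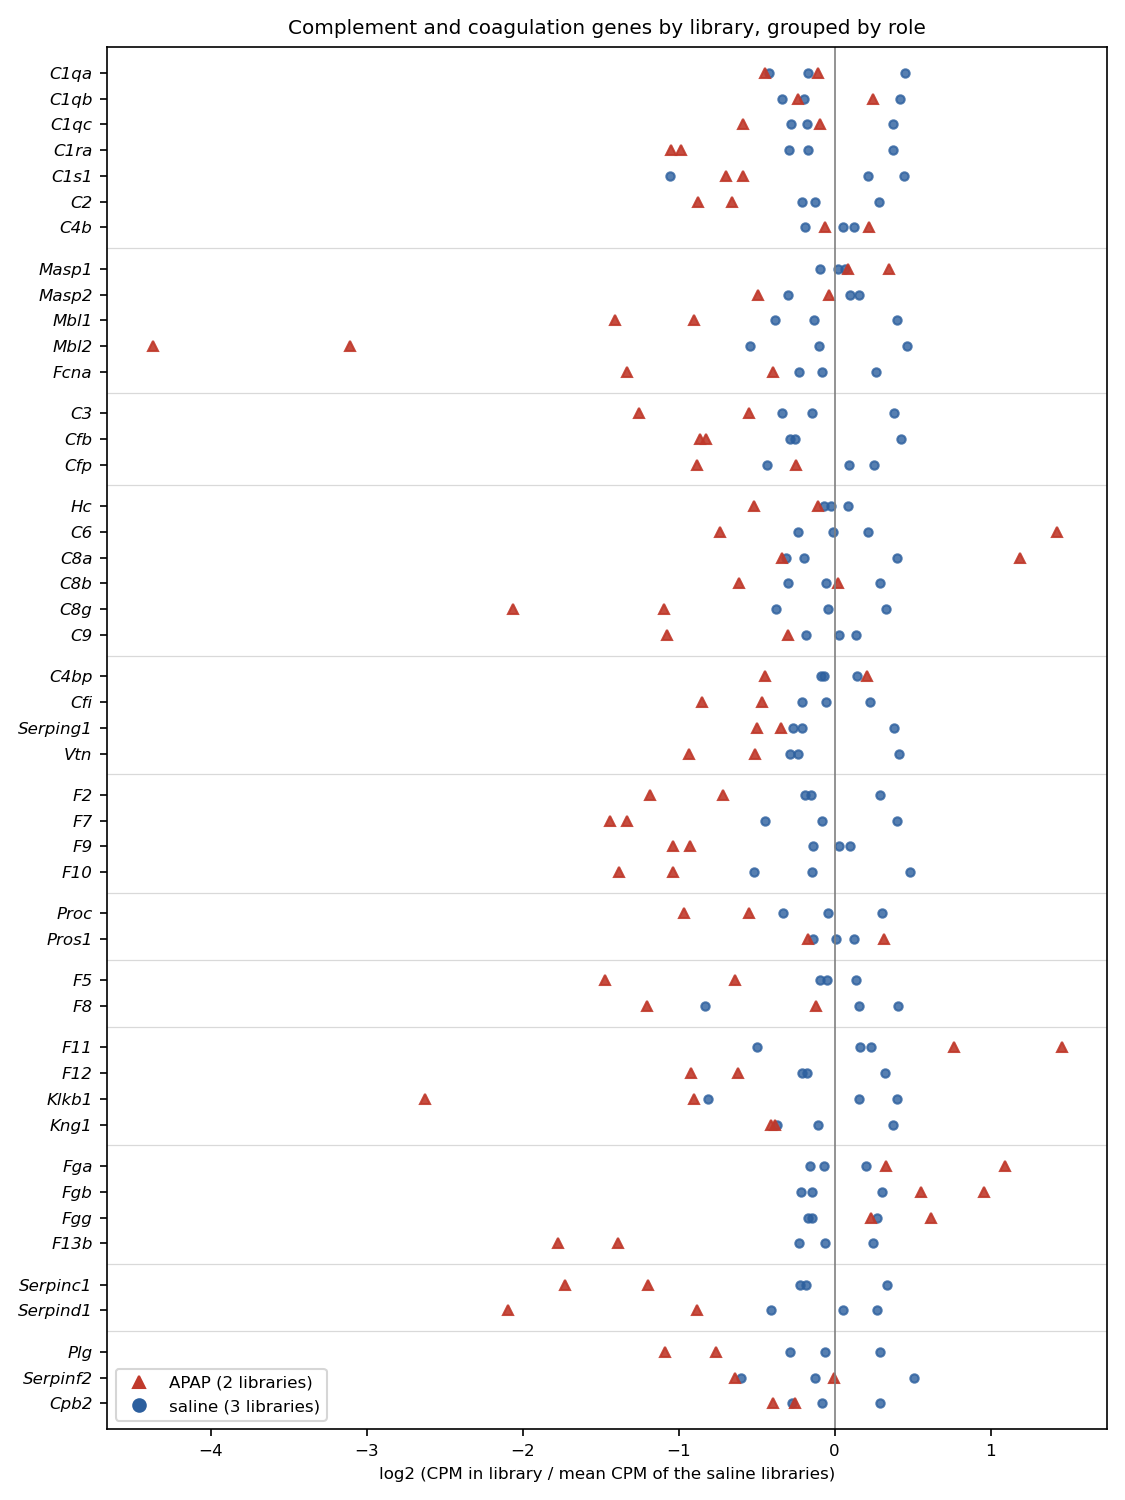
CPM of 46 members in each library, as the log2 ratio to the mean of the saline libraries (horizontal axis), with genes grouped by role and a mark per library (triangles, 2 APAP libraries; circles, 3 saline libraries). Cfd, with 0 counts in WT1, is left out. In 26 members both triangles lie left of all circles, in Mbl2 by the widest gap. In 4 members, the fibrinogen chains Fga and Fgb, F11 and Masp1, both lie to the right.

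**Figure D2:**
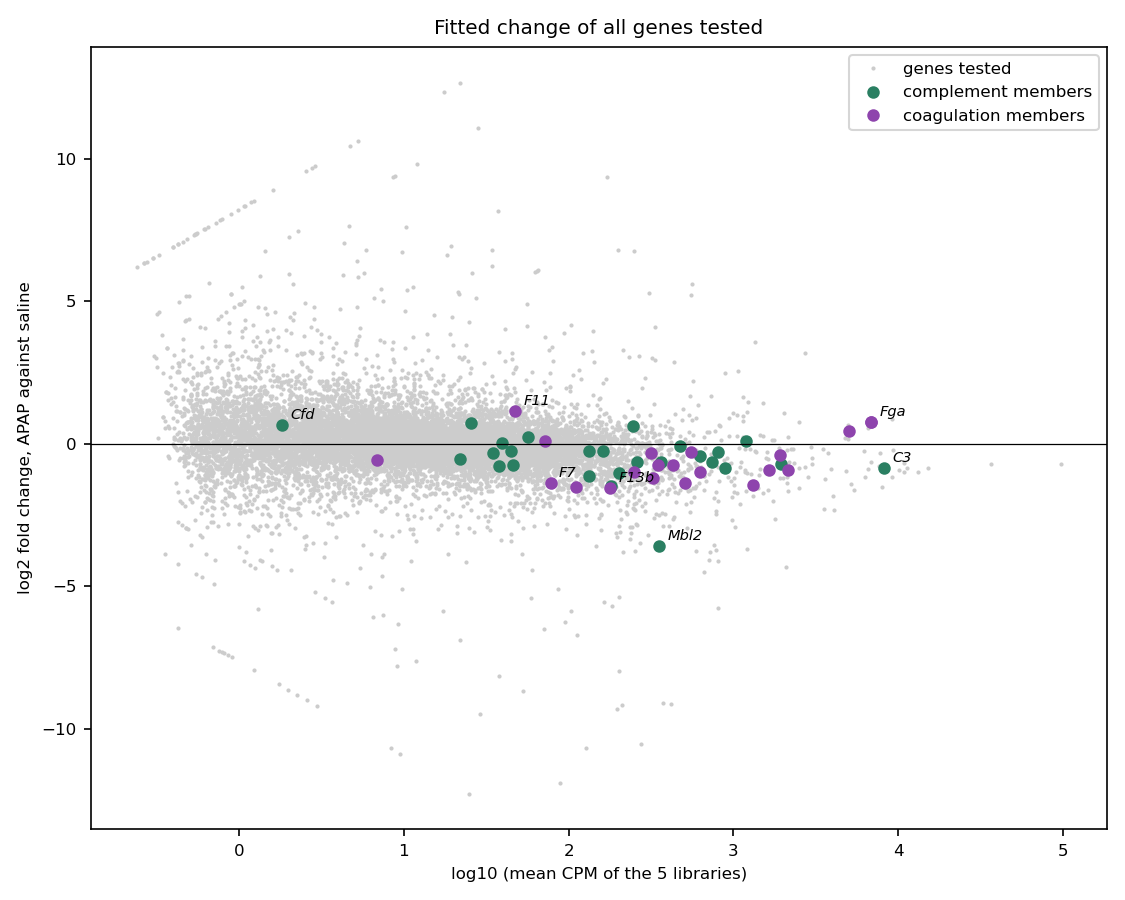
Fitted log2 fold change (APAP against saline, vertical axis) against the log10 of mean CPM for the 13734 genes tested, with the 26 complement and 21 coagulation members in colour. Of the members, 36 lie below 0, Mbl2 is the lowest at -3.60 and F11 the highest at 1.15.

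Of the 4 vitamin K-dependent clotting proteases, 1 (F7) fell at the adjusted threshold. All 4 were lower in the APAP libraries without overlap, where 20.1% of all genes tested were. F7 (chr8:13026034-13035809, plus strand), the factor that pairs with tissue factor to start clotting, was at 38.0 and 40.9 CPM in APAP replicates 1 and 3 and at 135.9, 97.5 and 75.7 CPM in WT1, WT2 and WT3. The saline mean was 2.61 times the APAP mean, and the log2 fold change was -1.38 (SE 0.295, adjusted p = 0.0404). Its APAP libraries were close to each other and its saline libraries were spread, and the adjusted p was between 0.0586 and 0.228 when APAP replicate 1 or 3, WT1 or WT2 was left out and 0.0563 with library size only. F10, the protease that converts prothrombin, read 160.0 and 203.5 CPM in the APAP livers against 584, 377 and 291.5 CPM in the saline livers, a log2 fold change of -1.20 (SE 0.357, adjusted p = 0.0931). F9, the factor missing in haemophilia B, had a log2 fold change of -0.98 (SE 0.228) at an adjusted p of 0.0501, and F2, prothrombin itself, one of -0.93 (SE 0.327, adjusted p = 0.139). The summed level of the 4 genes was 1240 and 1640 CPM with APAP and between 2522 and 3509 CPM with saline.

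Both serpins that restrain clotting were lower in the APAP libraries. Serpinc1, antithrombin, the main inhibitor of thrombin, measured 528 and 765 CPM after APAP, compared with 2212, 1545 and 1501 CPM after saline (log2 fold change -1.44, SE 0.345, adjusted p = 0.0546). Serpind1, heparin cofactor II, read 157.6 and 365 CPM in the APAP livers against 813, 697 and 508 CPM in the saline livers (log2 fold change -1.36, SE 0.427, adjusted p = 0.107). In both genes every APAP library was below every saline library, and neither passed the adjusted threshold. Of the exon bases of Serpinc1, 34.4% overlap a gene on the other strand, and whether the counts used strand is not given in the sources used here. Of the protein C anticoagulants, Proc had a log2 fold change of -0.74 (SE 0.294, adjusted p = 0.177) without overlap, and its cofactor Pros1 one of 0.10 (SE 0.229, adjusted p = 0.841) with overlapping groups. The cofactor F5 was lower without overlap (-0.996, SE 0.326, adjusted p = 0.119), and F8, which is made mainly by endothelial cells, had the lowest level per length of all members and overlapping groups (-0.56, SE 0.484).

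The fibrinogen chains went against this direction, and the subunit that carries the fibrin crosslinker fell. Fga, the alpha chain, measured 11390 and 6718 CPM after APAP, compared with 6145, 5115 and 4805 CPM after saline. Fgb, the beta chain, read 10370 and 7860 CPM in the APAP livers against 6587, 4845 and 4610 CPM in the saline livers. Fgg, the gamma chain, measured 6774 and 5205 CPM after APAP, compared with 5331, 3937 and 4003 CPM after saline. Both APAP libraries were above all saline libraries for Fga and Fgb, replicate 1 being much the higher for Fga, and for Fgg replicate 3 lay within the saline range. None passed the test, with log2 fold changes of 0.76 (SE 0.385, adjusted p = 0.281), 0.77 (SE 0.367, adjusted p = 0.252) and 0.44 (SE 0.347, adjusted p = 0.488), and without APAP replicate 1 the value of Fga was 0.33. Together these 3 genes took 3.63% and 2.16% of all counts in the APAP libraries and between 1.26% and 1.42% in the saline libraries, while the other 44 members took 2.18% and 2.50% against between 2.77% and 3.25%.

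F13b (chr1:139501702-139523752, plus strand), the plasma carrier subunit of factor XIII, read 71.0 and 92.9 CPM in the APAP livers against 289.0, 233 and 207.6 CPM in the saline livers. Its saline mean was 2.97 times its APAP mean, with a log2 fold change of -1.57 (SE 0.270, adjusted p = 0.0221). The gap between the groups was wider than the spread within either, but the adjusted p was 0.159, 0.0685 and 0.0905 without APAP replicate 1, APAP replicate 3 and WT2. F13a1, the catalytic subunit, which is made by monocytes, macrophages and megakaryocytes and is no member, rose from 6, 7 and 15 counts with saline to 94 and 70 counts with APAP (log2 fold change 2.86, adjusted p = 0.0211). Of 6 monocyte markers 2 were called higher, where 3.7% of all genes tested were, and 4 were higher without overlap, where 24% were. Their median log2 fold change was 1.29, with a range from -0.04 to 6.73. The summed level, most of it from Lyz2, overlapped, at 95.8 and 154.8 CPM with APAP against 74.4 to 109.7 CPM with saline. The part of monocytes in the value of F13a1 was not tested.

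**Figure D3:**
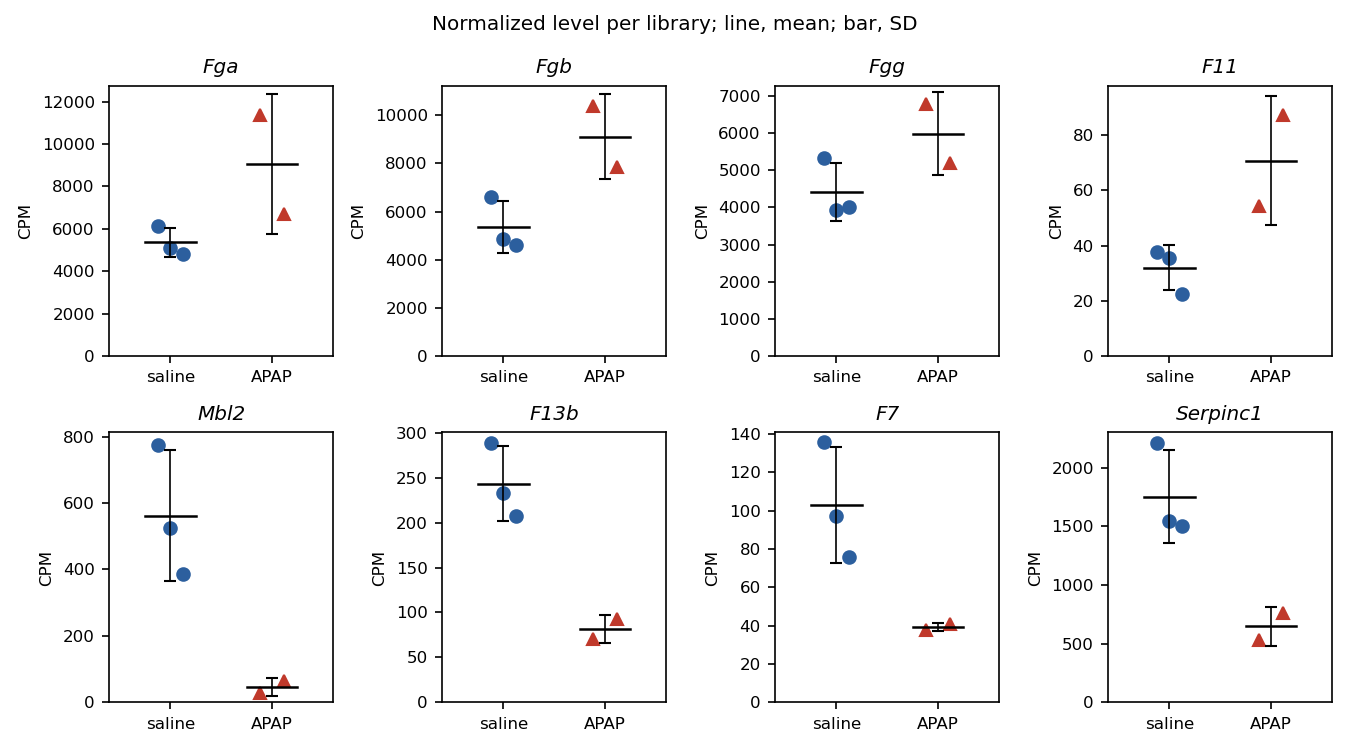
CPM of Fga, Fgb, Fgg, F11, Mbl2, F13b, F7 and Serpinc1 in each saline library (circles, n = 3) and each APAP library (triangles, n = 2), with the mean (line) and SD (bar) of each group on axes that start at 0. Groups overlap in Fgg, where replicate 3 of APAP lies below WT1, and in no other gene shown. Both APAP libraries are above all saline libraries in Fga, Fgb and F11 and below them in the genes of the lower row.

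The promoters of the fibrinogen chains and of the 3 members that fell are printed because these genes lie at the opposite ends of the set among its abundant or called members. The stretches come from RefSeq (GRCm38.p6), read 5′ to 3′ on the strand of the gene, and end at the base before the gene start in the table. RefSeq promoters were found for 37 of the 47 members. Capitals mark letters found by a search of both strands for TTCNNNGAA (bound by STAT factors), TTGCGCAA, TTGCACAA and TTGCAACA (forms bound by C/EBP factors), and CTGGGAA, the core of the interleukin 6 response element described for fibrinogen genes, which was added after the promoters were seen.
Fga (chr3:83025903-83026075, plus strand): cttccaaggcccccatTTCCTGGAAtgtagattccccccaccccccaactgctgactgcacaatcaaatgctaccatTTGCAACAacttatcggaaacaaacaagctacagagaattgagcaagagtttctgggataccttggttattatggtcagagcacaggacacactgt
Fgb (chr3:83049864-83050113, minus strand): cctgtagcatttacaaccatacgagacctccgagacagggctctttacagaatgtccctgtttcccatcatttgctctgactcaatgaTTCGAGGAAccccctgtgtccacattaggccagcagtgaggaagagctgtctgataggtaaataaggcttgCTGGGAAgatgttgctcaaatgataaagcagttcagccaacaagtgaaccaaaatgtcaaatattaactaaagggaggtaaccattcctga
Fgg (chr3:83007474-83007723, plus strand): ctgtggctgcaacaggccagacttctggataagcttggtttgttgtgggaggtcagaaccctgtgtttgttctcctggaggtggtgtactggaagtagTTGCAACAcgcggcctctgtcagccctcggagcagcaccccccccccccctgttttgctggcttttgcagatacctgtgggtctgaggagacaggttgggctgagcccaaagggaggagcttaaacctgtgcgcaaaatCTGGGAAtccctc
Mbl2 (chr19:30232678-30232927, plus strand): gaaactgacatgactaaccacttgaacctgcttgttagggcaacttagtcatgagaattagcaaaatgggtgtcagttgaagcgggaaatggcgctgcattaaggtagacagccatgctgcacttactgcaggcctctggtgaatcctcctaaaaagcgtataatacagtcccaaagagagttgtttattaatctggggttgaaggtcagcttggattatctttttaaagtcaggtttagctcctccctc
F13b (chr1:139501457-139501701, plus strand): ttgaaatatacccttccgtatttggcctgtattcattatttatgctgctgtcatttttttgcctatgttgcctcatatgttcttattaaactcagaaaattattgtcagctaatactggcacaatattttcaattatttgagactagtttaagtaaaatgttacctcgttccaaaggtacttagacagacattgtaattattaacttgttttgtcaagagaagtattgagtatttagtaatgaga
F7 (chr8:13025784-13026033, plus strand): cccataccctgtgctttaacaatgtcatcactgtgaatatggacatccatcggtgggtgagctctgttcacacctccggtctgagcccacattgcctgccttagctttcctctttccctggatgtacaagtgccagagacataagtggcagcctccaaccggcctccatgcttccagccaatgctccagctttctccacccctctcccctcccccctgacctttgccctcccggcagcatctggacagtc

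Each fibrinogen promoter held a match and the promoters of Mbl2, F13b and F7 held none of these letters. Counted upstream from the gene start, the STAT letters began at base 157 in Fga and 162 in Fgb, TTGCAACA at base 96 in Fga and 152 in Fgg, and CTGGGAA at base 91 in Fgb and 13 in Fgg. Over the full windows of 300 bases, TTCNNNGAA was in 8 of the 37 members with a promoter (21.6%: C1ra, C8a, F9, Fga, Fgb, Masp2, Pros1 and Vtn) and in 9.55% of the promoters of 27025 genes. TTGCAACA was in 3 (8.11%: C6, Fga and Fgg) against 0.851%, TTGCACAA in 1 (F9) against 1.13%, and TTGCGCAA in none against 0.207%. CTGGGAA was in 8 (21.6%) against 12.7%. Members with the STAT letters included genes with negative fitted values, among them C1ra and F9, and a match of letters is a description of the sequence, not a binding site.

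In the contact system, neighbouring genes differed in direction. F11 (chr8:45241170-45262031, minus strand), which activates factor IX, measured 54.2 and 87.4 CPM after APAP, compared with 37.5, 35.6 and 22.6 CPM after saline (log2 fold change 1.15, SE 0.308, adjusted p = 0.0727). Klkb1 (chr8:45269442-45294859, minus strand), plasma prekallikrein, the closest relative of F11 and 7410 bases away, read 24.2 and 80.1 CPM in the APAP livers against 197.4, 166.8 and 85.4 CPM in the saline livers (log2 fold change -1.52, SE 0.574, adjusted p = 0.161). F11 was higher and Klkb1 lower in both APAP libraries than in any saline library. The count of F11 relative to that of Klkb1 in the same library, which no scaling between libraries can change, was 2.24 and 1.09 with APAP and between 0.190 and 0.264 with saline. The count of Klkb1 is uncertain. The table pairs the symbol Klkb1 with an identifier that GENCODE M21 gives to Gm45753, an overlapping gene model, so its counts and this ratio may be those of that model, and 42.7% of the 50-base words of the M21 transcript of Klkb1 occur in Gm45753. Of the other 2 members, Kng1 (high molecular weight kininogen) had a log2 fold change of -0.40 (SE 0.333, positive with library size only) and F12 (factor XII) one of -0.76 (SE 0.285, adjusted p = 0.159), both without overlap.

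Plg, plasminogen, the precursor of the protease that dissolves fibrin, measured 1239 and 1550 CPM after APAP, compared with 3214, 2519 and 2154 CPM after saline. Its groups did not overlap, with a log2 fold change of -0.91 (SE 0.330, adjusted p = 0.147). The plasmin inhibitor Serpinf2 and the carboxypeptidase Cpb2, which slows fibrin breakdown, overlapped between groups, at -0.29 (SE 0.393) and -0.32 (SE 0.263).

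Among complement genes, the lectin pathway held the member that moved most. Mbl2 (chr19:30232928-30239685, plus strand), mannose-binding lectin C, which recognises sugars on microbes, read 27.1 and 65.2 CPM in the APAP livers against 774, 524 and 386 CPM in the saline livers. The saline mean was 12.2 times the APAP mean, with a log2 fold change of -3.60 (SE 0.529, adjusted p = 0.0147), and -3.10 and -3.65 at adjusted p-values of 0.0663 and 0.0628 without APAP replicate 1 and without WT2. Per kilobase of exon it ranked at place 8 of the 47 members with saline and at place 31 with APAP. Mbl1, mannose-binding lectin A, measured 64.3 and 91.2 CPM after APAP, compared with 225.2, 155.5 and 130.7 CPM after saline (log2 fold change -1.13, SE 0.318, adjusted p = 0.0821). Mbl1 had 2.37 and 1.40 counts per count of Mbl2 in the APAP libraries and between 0.291 and 0.339 in the saline libraries. Per kilobase of exon, Mbl2 was above Mbl1 in every saline library. In APAP replicate 1 Mbl1 was the higher, at 40.9 against 24.9 CPM per kilobase. In APAP replicate 3 they were close, at 58.1 for Mbl1 and 59.9 CPM per kilobase for Mbl2. Their proteases had small values, Masp1 of 0.22 (SE 0.195, higher without overlap) and Masp2 of -0.25 (SE 0.261, overlapping, with 54.9% of its exon bases shared with Tardbp on the other strand). Fcna, a ficolin of macrophages, had a log2 fold change of -0.79 (SE 0.323, adjusted p = 0.190).

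C3, on which all pathways converge, read 4212 and 6868 CPM in the APAP livers against 13110, 7965 and 9107 CPM in the saline livers (log2 fold change -0.86, SE 0.435, adjusted p = 0.279). Both APAP libraries were below the saline libraries, but the saline libraries differed from each other by more than replicate 3 of APAP differed from WT2. Cfb, the protease of the alternative pathway, was also lower without overlap (-0.85, SE 0.327, adjusted p = 0.169), as was C2, its counterpart in the classical pathway (-0.76, SE 0.234, adjusted p = 0.102). Reads of both can be counted for Gm20547, a model that runs through both genes, since 81.4% of the words of Cfb and 58.0% of those of C2 occur in it, and Gm20547 itself had a log2 fold change of -0.88 (adjusted p = 0.128). Cfd, adipsin, a product of fat cells singled out after its values were seen, was between 0 and 4.23 CPM in all libraries (log2 fold change 0.64, SE 1.38), and its groups overlapped. Of the 6 fat cell markers read beside it, Adipoq, Plin1, Retn and Lep had at most 8 counts in any library, and 2 were tested. Cidec rose from 5, 5 and 32 counts with saline to 1715 and 420 counts with APAP (log2 fold change 5.98, adjusted p = 0.0136), and Plin4 overlapped between groups, with 2844 and 588 counts with APAP and between 43 and 1951 counts with saline. The part of fat cells in the value of Cfd was not tested.

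Of the 7 genes that start the classical pathway, 2 were lower without overlap, where 20.1% of all genes tested were, and 5 overlapped. C1ra, the protease C1r, measured 128.3 and 122.9 CPM after APAP, compared with 329, 226 and 207.8 CPM after saline (log2 fold change -1.02, SE 0.281, adjusted p = 0.0792). Its partner C1s1 read 283 and 263 CPM in the APAP livers against 205.3, 579 and 494 CPM in the saline livers, WT1 standing apart. C1s1 had 2.21 and 2.14 counts per count of C1ra with APAP, 0.624 in WT1, and 2.56 and 2.38 in WT2 and WT3. Of the words of C1ra and C1s1, 50.8% and 24.3% occur in other genes, mainly C1rb and C1s2, so both counts are uncertain. C1rb itself had 2 counts in WT1 and 0 in every other library, and C1s2 had 0 in every library. The macrophage products C1qa, C1qb and C1qc, chains of the antibody-binding subunit, had log2 fold changes between -0.32 and 0.03 with overlapping groups. The 8 Kupffer cell markers had a median of -0.21 with none called, but ranged from -0.57 to 2.49. Of these, 1 (Marco) was higher and 1 (Vsig4) lower without overlap, where 24% and 20.1% of all genes tested were.

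C4b, the main mouse C4, overlapped between groups, at 1346 and 1109 CPM with APAP against between 1012 and 1257 CPM (log2 fold change 0.09, SE 0.274). C4a, the sex-limited protein known from male mice, which is no member and shares 35.2% of the words of C4b, rose from 27, 34 and 27 counts with saline to 236 and 105 counts with APAP (log2 fold change 2.24, SE 0.402, adjusted p = 0.0256). C4a remained a small part of C4, at 0.0103 and 0.00585 counts per count of C4b with APAP and between 0.00151 and 0.00223 with saline. Since the same libraries are separated by Xist and Y-linked transcripts, sex and treatment cannot be told apart for C4a.

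The terminal components differed by chain. C8g, the gamma chain of C8, a lipocalin bound to the alpha chain, measured 58.1 and 113.7 CPM after APAP, compared with 304, 236 and 187.3 CPM after saline (log2 fold change -1.50, SE 0.375, adjusted p = 0.0607). C8a and C8b, which insert into the membrane and lie side by side on chromosome 4, overlapped between groups, at 0.62 (SE 0.459) and -0.26 (SE 0.293). Within a library the count of C8b relative to C8g was 1.6 and 1.27 with APAP and between 0.571 and 0.617 with saline, and that of C8a relative to C8g was 2.76 and 4.06 against between 0.537 and 1.13. Hc, the mouse C5, and C9, the pore-forming component, were lower without overlap at -0.30 (SE 0.267, positive with library size only) and -0.64 (SE 0.300, adjusted p = 0.248). C6 measured 12.2 and 54.6 CPM after APAP, with a saline range of 17.3 to 23.6 CPM, so its APAP libraries lay on either side of the controls.

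Among the inhibitors in plasma, 3 of 4 were lower without overlap (20.1% of all genes tested) and none passed the adjusted threshold. Vtn, vitronectin, which blocks the membrane attack complex, measured 1198 and 1604 CPM after APAP, with a saline range of 1876 to 3043 CPM (log2 fold change -0.71, SE 0.357, adjusted p = 0.278). Cfi, the protease that inactivates C3b and C4b, and Serping1, the inhibitor of C1, had values of -0.64 (SE 0.284) and -0.42 (SE 0.301), while C4bp, a cofactor of Cfi, overlapped at -0.08 (SE 0.285).

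**Figure D4:**
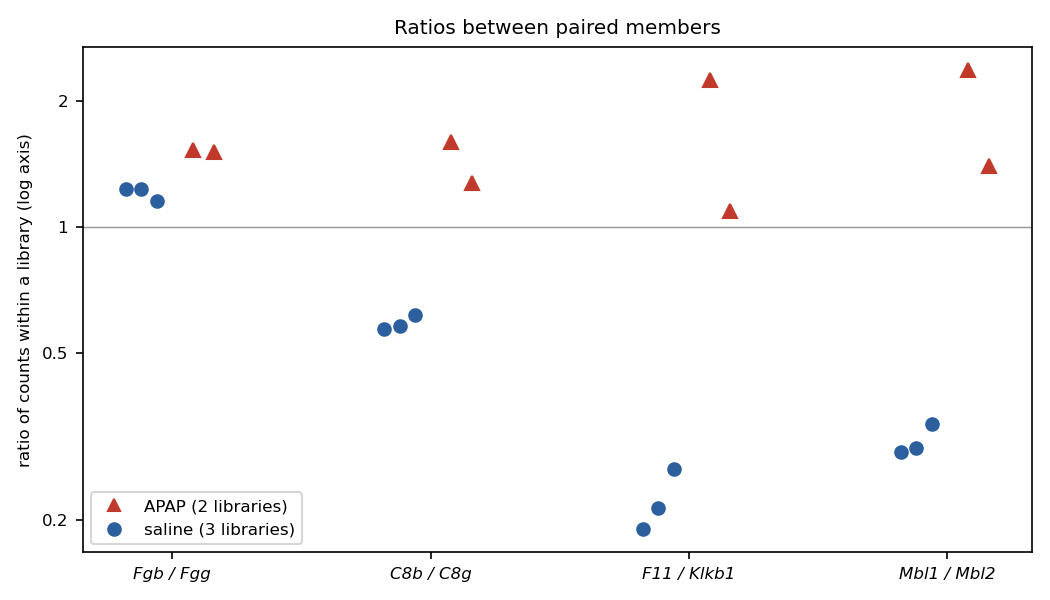
Ratio of the counts of paired members within each library (vertical log axis) for Fgb over Fgg, C8b over C8g, F11 over Klkb1 and Mbl1 over Mbl2 (triangles, 2 APAP libraries; circles, 3 saline libraries). The APAP libraries lie above the saline libraries in each pair shown. In 3 of the 4 pairs the ratio is below 1 with saline and above 1 with APAP. Counts are not divided by gene length, so a ratio of 1 does not mark equal levels. The 4 pairs were picked from a longer list of ratios. Some of the others overlapped between groups, and C1qa over C1qb was lower with APAP.

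Ratios between the chains of fibrinogen differed less between the groups. Fgb had 1.53 and 1.51 counts per count of Fgg with APAP and between 1.15 and 1.24 with saline, whereas Fga relative to Fgb was 1.10 and 0.855 with APAP and between 0.933 and 1.06 with saline. Of the C1q chains, C1qa relative to C1qb was lower without overlap, at 1.05 and 0.955 with APAP against between 1.15 and 1.24 with saline. Fga relative to Fgg, C1qa to C1qc and C8a to C8b overlapped between groups. The ratios of Mbl1 to Mbl2, of F11 to Klkb1, of C1s1 to C1ra and of C4a to C4b were chosen after the values were seen, and no ratio was tested.

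Levels spanned a wide range once divided by exon length. With saline, Fgg was the highest at 2114 ± 376 CPM per kilobase (SD, n = 3), ahead of C3 at 1956 ± 525, Fga at 1779 ± 233 and Fgb at 1403 ± 284, and these neighbours in the order overlapped in range. F8 was the lowest at 0.793 ± 0.312 CPM per kilobase. Of the 46 steps between neighbours in the order, 43 had overlapping ranges over the saline libraries. With APAP, Fga was first at 3008 CPM per kilobase, followed by Fgg and Fgb at 2862 and 2392, and C3 was at 1077.

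Members that lie next to each other in the genome differed in whether they shared a direction. Fgg, Fga and Fgb, with gaps of 11026 and 6513 bases on chromosome 3, had positive values, and F7, F10 and the related gene Proz on chromosome 8, with gaps of 1498 and 4231 bases, had log2 fold changes of -1.38, -1.20 and -1.31. C8b and C8a, 11130 bases apart, had opposite signs (both positive with library size only), and F11 and Klkb1 had opposite signs under either scaling.

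Other genes of these pathways were read from a list of 66 symbols, of which Masp3 and Cfhr4 were not found and C1s2 and Itgam were listed as 2 identifiers each. Of the resulting 66 identifiers 56 were tested, and 6 rose and 4 fell at the adjusted threshold (10.7% and 7.14%, with the background above). The median log2 fold change was 0.12. Genes that control the breakdown of fibrin from the cell side were higher, in contrast with Plg. All 5 plasminogen activators, receptors and inhibitors were above the saline libraries, where 24% of all genes tested were. Of these 5, 3 were called higher, where 3.7% of all genes tested were. Some had low counts, among them Plau (19 and 26 with APAP, 5, 6 and 6 with saline) and Plat (68 and 37 with APAP, 2, 14 and 9 with saline). Plaur, the urokinase receptor, rose by 3.20 (SE 0.495, adjusted p = 0.0166), and Serpinb2, plasminogen activator inhibitor 2, went from 0 counts in all saline libraries to 17 and 29 counts. Procr, the endothelial protein C receptor, rose by 2.80 (SE 0.373, adjusted p = 0.0104).

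F3, tissue factor, the cell-bound partner of F7, had 93 and 55 counts with APAP and 20, 17 and 34 counts with saline (log2 fold change 1.35, SE 0.452, adjusted p = 0.124), so its groups did not overlap but the change did not pass the threshold. Genes that fell, named after their values were seen, included Vkorc1, the enzyme that recycles vitamin K (-1.62, adjusted p = 0.0400), Habp2 (-1.35, adjusted p = 0.0338) and Cd59a (-1.18, adjusted p = 0.0314), and 50.5% of the words of Vkorc1 occur in Gm21974. Of 9 identifiers of complement receptors tested, which include Itgam under 2 identifiers, 4 were higher without overlap, where 24% of all genes tested were. None was called (median 0.94). All 7 neutrophil markers tested were higher without overlap, and 6 were called, where 3.7% of all genes tested were. Their summed level was 116.4 and 75.5 CPM with APAP against between 4.57 and 8.34 CPM with saline. The part of neutrophils in the values of the receptors was not tested.

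**Figure D5:**
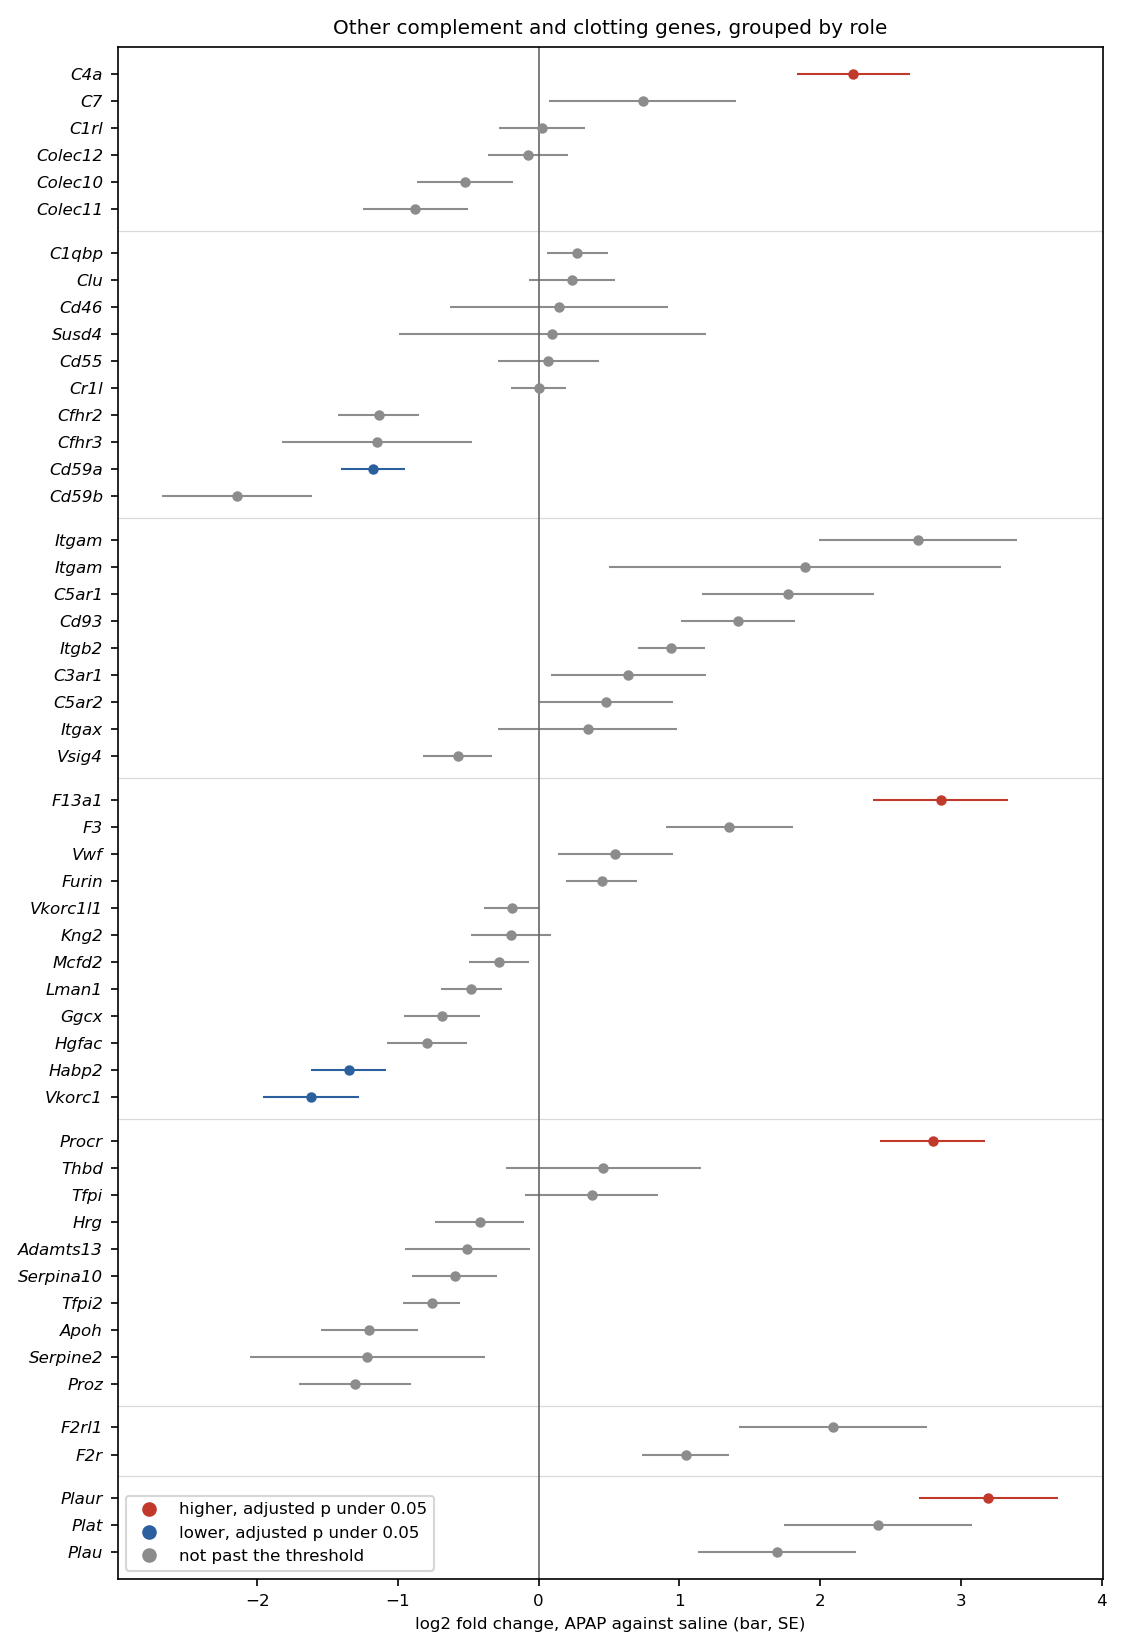
Fitted log2 fold change (APAP against saline, horizontal axis, with SE as bars) of 52 other complement and clotting identifiers, grouped by role, with those past an adjusted p of 0.05 in colour. Serpinb2, with 0 counts in saline, is left out. Of those shown, Plaur is the highest at 3.20 and Cd59b the lowest at -2.14.

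The zone of the lobule that APAP injures was read beside these values. At the adjusted threshold, 7 of 8 markers of centrilobular hepatocytes and 3 of 8 of periportal hepatocytes were lower, where 3.53% of all genes tested were. Without overlap, 8 of 8 and 6 of 8 were lower, where 20.1% of all genes tested were. The summed level of the centrilobular markers was 968.7 and 1856 CPM with APAP against between 7452 and 11970 CPM with saline. That of the periportal markers was 7609 and 6810 CPM against between 12840 and 13850 CPM. The medians were -4.12 and -1.04, against -0.64 for the 47 members. The part of either zone in the members' values was not tested.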

How the data were processed

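Liver RNA libraries were sequenced by the authors on an Illumina NovaSeq platform, and the deposited table gives 1 raw read count per gene and library, obtained with HISAT2. The submitters' processing notes name GRCm38 (mm10). The annotation, strand setting and program versions are not given in the sources used here. FPKM values in 5 further columns, from StringTie, were not used, nor was APAP replicate 2. The analysis used edgeR 4.0.16 (R 4.3.3) with filterByExpr (minimum count 10, minimum total 15), TMM, and the quasi-likelihood test of APAP against saline over all 13734 genes with Benjamini-Hochberg adjustment. The scripts were tested on simulated data. Floors cover counting error only, since reads carry no molecular identifiers. Nothing ties each library to a separate mouse, so p-values measure only the spread between these libraries, which may be technical.

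Values per library are given for members with an adjusted p under 0.05, a log2 fold change of at least 1 in size, the 5 highest mean CPM, and fibrin formation; for other members up to 2 examples per role, and of related genes those called, up to 6 by size, and C4a and F3 (some results of this rule are not reported here). The members and lists were chosen with earlier results of these data known. Exon lengths and shared words of 50 bases came from GENCODE M21, in which 36 of the 47 members have an identical position, and the length of Klkb1 came from the M21 gene of that name. Promoters came from RefSeq (GRCm38.p6, 250 bases before to 50 after the start). Alternatives were the exact and likelihood ratio tests of edgeR, DESeq2 1.42.0, other scalings, filters, thresholds and gene lengths, and each library left out. Plots used matplotlib 3.10.9 in Python 3.11.15.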

Additional observations from a re-analysis of the deposited data

How the results depend on the processing

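Against 3 members called (0 higher, 3 lower), edgeR's exact and likelihood ratio tests called 11 each (1 higher, 10 lower), DESeq2 18 (1 higher, 17 lower), library size only 5 (2 higher, 3 lower), keeping genes with 1 count in any library 6 (1 higher, 5 lower), keeping those with 10 counts in every library 6 (6 lower), an adjusted p under 0.10 gave 10 (1 higher, 9 lower) and the study's thresholds 20 (1 higher, 19 lower). Against 10 related genes, 21 were called by the likelihood ratio test, 20 by the exact test and 20 by DESeq2, 20 at an adjusted p under 0.10 and 26 at the study's thresholds. Leaving out 1 library gave between 0 and 3 members called, between 0 and 3 lower and 0 higher, and between 2 and 9 related genes. With size factors or upper-quartile factors 3 members were called. The cause of these shifts was not tested.

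The 3 called members (Mbl2, F13b and F7) were also called by DESeq2 and by the exact and likelihood ratio tests. Of 208 refits of the 16 members with values per library, 0 changed sign, 10 lost a call and 31 gained one. The thresholds of the study without each library, added after the data were seen, gave between 8 and 18 lower and between 1 and 3 higher members. No paired analysis was possible because the saline columns carry no number that the labels share. With 2 APAP libraries, depth limits only Cfd, which was near the floor of 3 counts in part of the libraries.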

Other observations

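Genes of interleukin 6 signaling and transcription factors of hepatocytes were read after the values of the members were seen. Il6 itself was at or near 0 in all libraries, with at most 0.334 CPM. Socs3, the feedback inhibitor that the pathway induces, read 38.0 and 33.6 CPM in the APAP livers against 7.34, 4.78 and 14.1 CPM in the saline livers, and rose by 2.03 on the log2 scale (SE 0.420, adjusted p = 0.0374 in edgeR's quasi-likelihood test). Osmr, the receptor of oncostatin M, rose by 1.87 (SE 0.350, adjusted p = 0.0286). Il6ra, Il6st and Stat3 had values of -0.32 (SE 0.530), 0.30 (SE 0.256) and 0.05 (SE 0.347), with overlapping groups.

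Of the transcription factors, Cebpa fell from 286.5, 254.0 and 204.6 CPM to 109.2 and 86.0 CPM (log2 fold change -1.35, SE 0.264, adjusted p = 0.0330). Cebpd was higher without overlap but did not pass the threshold (1.37, SE 0.480, adjusted p = 0.139), and Hnf4a was lower in the same way (-0.95, SE 0.371, adjusted p = 0.172). How these values relate to those of the complement and clotting genes was not tested.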
